A study of Mus musculus with 6 samples.

Results

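The pancreatic serine proteases and elastases are here 10 mouse genes: Try4, Try5, Try10, Gm5409, Prss2, Cela1, Cela2a, Cela3b, Ctrb1 and Ctrl. They were chosen by name, out of 19057 named genes on the array, because several of them read lower in SIRT1 deletion pools than in control pools, and 11 probes carry their symbols. The group difference of these genes is therefore given as a description. Where limma intervals or calls from the fit across all features are printed for them, they show size and spread and are no independent evidence of a difference. RNA came from the ventromedial hypothalamus of mice aged 16 weeks on a mixed genetic background. All mice were homozygous for a floxed Sirt1 allele (Sirt1loxP/loxP), and the deletion mice also carried Sf1-Cre, which removes Sirt1 in cells that express SF1, the product of Nr5a1. Each group had 3 RNA pools, each on 1 Illumina bead array. How many mice made up a pool, and of which sex, is not stated in the labels, and Cre acts in only part of the cells in the tissue.

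Trypsins, chymotrypsins and elastases are digestive enzymes that acinar cells of the exocrine pancreas make as inactive zymogens and store in granules. After secretion, enteropeptidase in the gut activates trypsinogen by cutting off a short peptide, and trypsin then activates the other zymogens. The enzymes share one fold, the S1 serine protease fold, and differ in the residue after which they cut: trypsins cut after lysine or arginine, chymotrypsins after large hydrophobic residues, and elastases mostly after small ones. In acinar cells the transcription factor PTF1, which contains the product of Ptf1a and an RBPJ protein, drives these genes through sites that pair an E-box with an RBPJ-type box.

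The trypsinogen genes lie next to each other. In the RefSeq annotation of GRCm38.p6, 11 genes follow each other on chromosome 6 from Try4 to Prss2, and 8 of them have a probe: the members Try4, Try5, Try10, Gm5409 and Prss2, and the non-members Prss3, Gm5771 and Gm10334. Gm5409 is annotated as a pseudogene, with Try10l as a synonym. Cela2a and Cela3b lie on chromosome 4, Ctrb1 and Ctrl on chromosome 8 and Cela1 on chromosome 15. Near-identical copies can share probe sequence, so the trypsinogen probes may not read separate transcripts.

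Promoter sequences were found for 7 of the 10 genes in RefSeq (GRCm38.p6): Try4, Prss2, Cela1, Cela2a, Cela3b, Ctrb1 and Ctrl. The 250 bases before the annotated start are shown for 5 of them, 5′ to 3′ on the gene's strand, to set promoters of detected members of each enzyme class beside that of an undetected one. They comprise a trypsinogen that was detected in control pools (Try4, chr6:41302022-41302271, plus strand) and the gene at the other end of the cluster, detected in no pool (Prss2, chr6:41521526-41521775, plus strand). The others are the elastase genes Cela2a (chr4:141826006-141826255, minus strand) and Cela1 (chr15:100687921-100688170, minus strand), and Ctrb1 (chr8:111691011-111691260, minus strand). Capitals mark the letters CACCTG (an E-box), TTCCCA (an RBPJ-type box), AAGGTCA (the half-site of NR5A receptors, to which SF1 belongs) and TATAAA, each on either strand.
Try4: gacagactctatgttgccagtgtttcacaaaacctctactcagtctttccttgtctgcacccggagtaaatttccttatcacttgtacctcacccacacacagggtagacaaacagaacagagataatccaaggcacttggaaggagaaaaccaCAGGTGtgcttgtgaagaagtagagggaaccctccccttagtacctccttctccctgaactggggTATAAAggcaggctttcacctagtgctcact
Prss2: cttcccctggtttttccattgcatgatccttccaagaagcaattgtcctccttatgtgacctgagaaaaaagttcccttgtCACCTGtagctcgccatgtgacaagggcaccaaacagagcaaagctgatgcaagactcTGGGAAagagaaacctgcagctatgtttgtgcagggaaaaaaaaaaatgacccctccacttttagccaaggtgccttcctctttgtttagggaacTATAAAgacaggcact
Cela2a: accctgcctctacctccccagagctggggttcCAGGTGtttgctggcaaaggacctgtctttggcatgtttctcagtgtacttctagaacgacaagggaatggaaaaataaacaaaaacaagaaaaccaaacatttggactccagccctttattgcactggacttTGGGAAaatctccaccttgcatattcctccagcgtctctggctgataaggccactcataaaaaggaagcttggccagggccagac
Cela1: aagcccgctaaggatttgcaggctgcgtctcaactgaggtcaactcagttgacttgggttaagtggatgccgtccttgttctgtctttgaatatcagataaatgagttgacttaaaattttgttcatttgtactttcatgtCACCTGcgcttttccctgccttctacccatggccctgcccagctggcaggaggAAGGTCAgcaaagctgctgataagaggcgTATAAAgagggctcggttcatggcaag
Ctrb1: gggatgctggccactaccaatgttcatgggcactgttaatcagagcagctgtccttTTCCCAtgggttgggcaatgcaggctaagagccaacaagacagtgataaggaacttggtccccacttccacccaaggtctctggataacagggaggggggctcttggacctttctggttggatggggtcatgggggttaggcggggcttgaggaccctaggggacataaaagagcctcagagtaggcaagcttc

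CACCTG occurred in 6 of the 7 windows, all but that of Ctrb1, and in 17.2% of the 32851 RefSeq promoter windows of the same length. TTCCCA occurred in 4 of the 7, those of Cela2a, Prss2, Ctrl and Ctrb1, against 21.6% of all windows. AAGGTCA occurred in that of Cela1 alone, against 4.08%, and TATAAA in those of Try4, Prss2 and Cela1, against 12.4%. None of these motifs overlapped another in the windows shown. Counted back from the base before the annotated start (position -1), the first base of the CACCTG match lay at -96 in Try4, -169 in Prss2, -218 in Cela2a and -109 in Cela1. Prss2, which was not detected, holds the E-box, the RBPJ-type box and TATAAA. The RBPJ-type match began at -111 in Prss2 and at -85 in Cela2a, apart from the E-box matches, and the other windows shown do not hold both boxes. Whether any of these letter matches is a PTF1 site was not tested.

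On the arrays as a whole, between 20053 and 20611 of 45281 probes per array were detected, which means a detection p-value, deposited for each probe, under 0.05. The median raw signal was between 145.5 and 149.4 in control pools and between 140.4 and 142.1 in deletion pools, so differences were taken from normalised values, and raw signals, where printed, show only the reading before that step. All 10 of the listed marker genes of ventromedial neurons, Nr5a1 among them, had a detected probe. That of Nr5a1 was dim, at 5.05 ± 0.13 in control and 5.49 ± 0.21 in deletion pools (log2 intensity, SD, n = 3 pools each). Its groups did not overlap (log2 difference 0.45, limma adjusted p = 0.427), and a second Nr5a1 probe was detected in 1 deletion pool only. Sirt1 itself read 7.69 ± 0.11 in control and 7.65 ± 0.13 in deletion pools (log2 intensity, SD, n = 3 pools each). Its probe was not placed relative to the floxed segment, so that value is no check of the deletion.

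Values below are log2 intensities after background correction, an added offset of 16 and quantile normalisation; they compare pools for 1 probe and not probes with each other. On this scale the weakest detected signal of an array was 4.86 to 4.90. Of the 11 probes, 9, each for a different gene, passed the filter of detection on at least 3 of the 6 arrays. The 9 were detected in all 3 control pools. In the deletion pools 5 remained detected on every array and 4 on none, where 0.253% of all 14221 features were detected on no deletion array. The last 4 passed the filter through the control pools alone and so had to differ. Each array is a bulk sample, in which fewer cells of a type and less RNA per cell cannot be told apart.

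**Figure D1:**
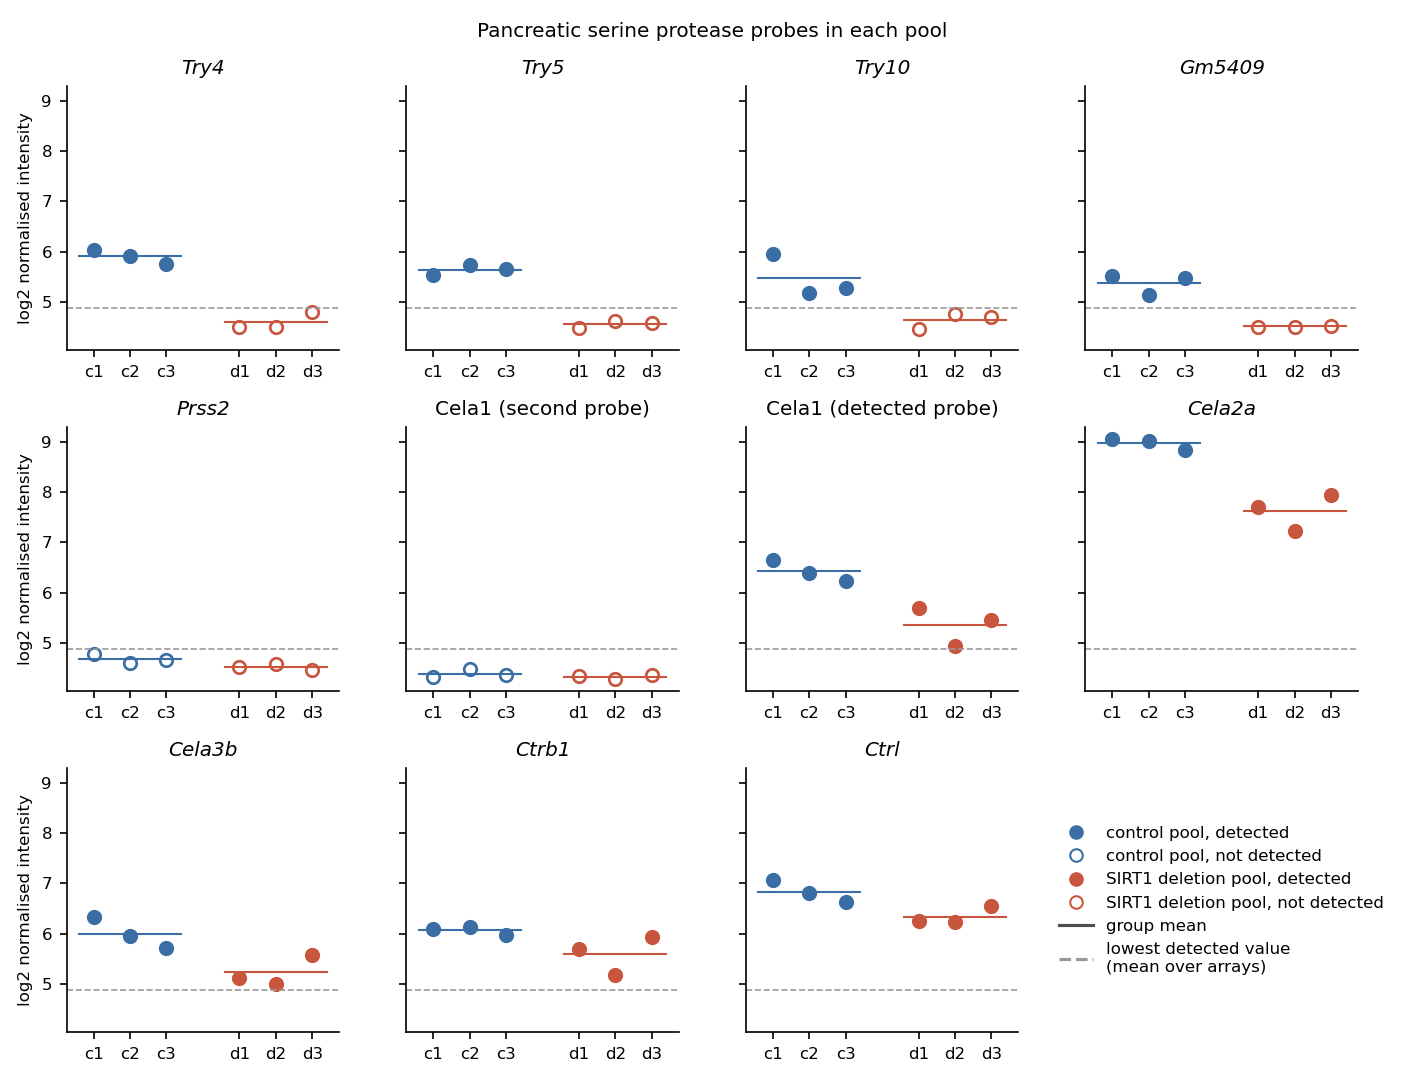
Log2 normalised intensity (vertical axis) of each of the 11 probes in control pools 1 to 3 (c1 to c3, blue) and SIRT1 deletion pools 1 to 3 (d1 to d3, red), with group means as lines; filled points were detected, open points were not, and the dashed line is the lowest detected value averaged over arrays. The trypsinogen probes of Try4, Try5, Try10 and Gm5409 are open in every deletion pool, whereas those of Cela2a, Cela1, Cela3b, Ctrb1 and Ctrl stay filled in all 6.

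In the deletion pools the probes of Try4, Try5, Try10 and Gm5409 read below the detection limit. Try4, a trypsinogen gene, read 6.03, 5.92 and 5.76 in control pools 1 to 3 and 4.51, 4.51 and 4.81 in deletion pools 1 to 3. Every deletion value was below the lowest detected value of its array, and all control pools stood above it. Try4 was at least 2.03-fold lower, the control mean being set against the higher of each deletion array's lowest detected value and the probe's own. In raw signal the same probe gave 192.1, 185.5 and 176.9 in control pools and 133.4, 133.8 and 144.1 in deletion pools.

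Try5, the next protein-coding trypsinogen gene along the chromosome, read 5.53, 5.74 and 5.65 in control pools and 4.48, 4.63 and 4.59 in deletion pools. The control pools lay within 0.22 of each other and all stood above the deletion pools, with a bound of at least 1.69-fold. Try10, a trypsinogen gene further along, read 5.95, 5.18 and 5.29 in control pools and 4.46, 4.75 and 4.70 in deletion pools. Control pool 1 was the high one, 0.66 above the next, and the bound over all pools was at least 1.50-fold. Gm5409 read 5.52, 5.14 and 5.47 in control pools and 4.51, 4.51 and 4.53 in deletion pools, at least 1.40-fold lower. Its deletion values had an SD of 0.013 against 0.207 in control pools, and all 3 lay below the lowest detected value.

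Prss2, the gene of the anionic trypsinogen, was detected on no array. It read 4.78, 4.60 and 4.67 in control pools and 4.52, 4.58 and 4.47 in deletion pools, all below the lowest detected value, so it has no fold. The raw detection p-values of this probe ranged from 0.0972 to 0.459.

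The 3 other genes of the cluster with a probe, taken for their place in the annotation, gave mixed readings. Gm10334, annotated as protein-coding, was detected in all control pools and 2 deletion pools and had means of 5.43 ± 0.17 and 4.99 ± 0.24 (SD, n = 3 pools each), a log2 difference of -0.44 (95% interval -0.76 to -0.12) with a limma adjusted p = 0.501. Gm5771 was detected in 2 control pools and no deletion pool, with means of 4.90 and 4.62, and missed the filter. Prss3 was detected on no array, with means of 4.63 and 4.42.

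Elastases kept a detected signal in every pool. Cela2a, which encodes a pancreatic elastase, read 9.05, 9.01 and 8.83 in control pools 1 to 3 and 7.71, 7.22 and 7.94 in deletion pools 1 to 3. The control pools were close together, the deletion pools were 0.72 apart from lowest to highest, and the groups were 0.89 apart. The control mean was 2.54-fold the deletion mean (log2 difference -1.34, 95% interval -1.73 to -0.95). In raw signal this was 678.8, 666.4 and 609.6 against 308.7, 260.7 and 350.7, and in the authors' normalised values 799.7, 780.4 and 700.7 against 372.7, 295.9 and 422.8.

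Cela1, another elastase gene, has 2 probes. The first read 6.65, 6.40 and 6.24 in control pools and 5.70, 4.95 and 5.46 in deletion pools, a 2.09-fold difference of means (log2 difference -1.06, 95% interval -1.49 to -0.63). The groups did not overlap, and deletion pool 2 was the low one. The second Cela1 probe, matched to a cDNA clone sequence and not to the RefSeq transcript, was detected on no array and read between 4.28 and 4.49 in all 6 pools, with the groups overlapping. Cela3b, a further elastase-family gene, read 6.33, 5.95 and 5.71 in control pools and 5.13, 4.99 and 5.58 in deletion pools. Here the groups came within 0.13 of each other, between control pool 3 and deletion pool 3, with a 1.69-fold difference of means (log2 difference -0.76, 95% interval -1.19 to -0.33).

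The chymotrypsin genes showed the narrowest separation. Ctrl, which encodes a chymotrypsin-like protease, read 7.07, 6.80 and 6.63 in control pools and 6.25, 6.23 and 6.54 in deletion pools. The groups were 0.08 apart and the difference of means was 1.41-fold (log2 difference -0.49, 95% interval -0.81 to -0.18). Ctrb1, the gene of chymotrypsinogen B, read 6.09, 6.14 and 5.97 in control pools and 5.70, 5.17 and 5.94 in deletion pools. Deletion pool 3 came within 0.04 of control pool 3, and deletion pool 2 was 0.53 below the next. The log2 difference of -0.46 (95% interval -0.87 to -0.06) became -0.25 without deletion pool 2.

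**Figure D2:**
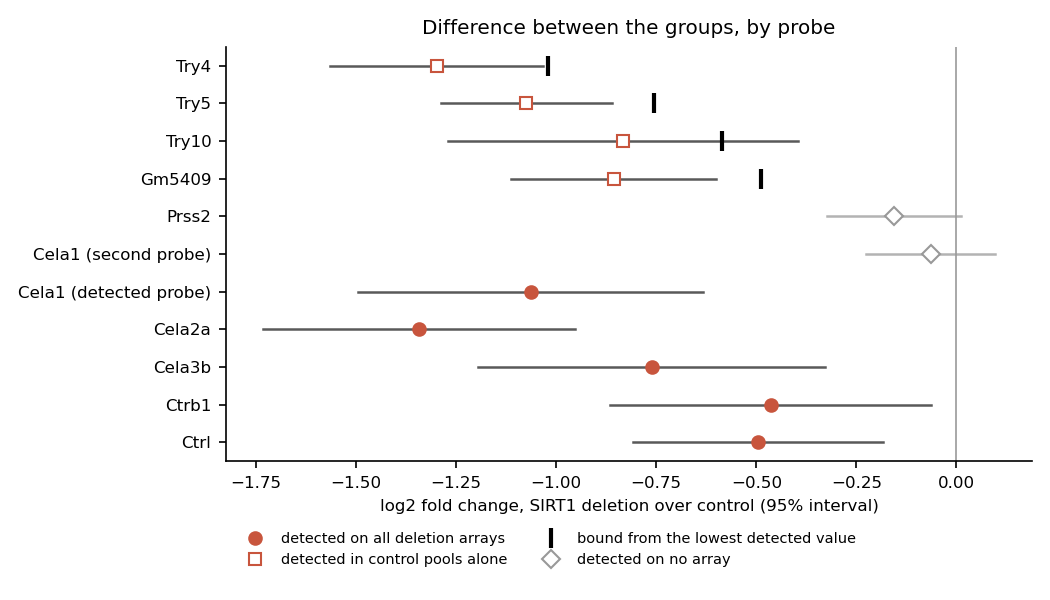
Log2 fold change of SIRT1 deletion over control (horizontal axis, with 95% intervals from limma) for each of the 11 probes. Cela2a and Try4 lie furthest to the left at -1.34 and -1.30, black ticks mark the bounds for the 4 probes detected in control pools alone, and grey diamonds are the 2 probes detected on no array.

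Read in the fit across all 14221 features, 4 of the 9 genes that passed the filter were called lower at a limma adjusted p under 0.05, which are Try4, Try5, Gm5409 and Cela2a, and 0.0492% of all features were called lower. In all 9 the deletion pools lay below every control pool, as they did in 7.21% of all features. The genes were picked on this contrast, so neither count is read further. The call of Cela2a was lost without control pool 1, 2 or 3 or deletion pool 1 (limma adjusted p between 0.0856 and 0.236), and that of Gm5409 without control pool 1 or 3 or any 1 deletion pool (0.0911 to 0.225). All 9 log2 differences were negative, as were 51.5% of those of all features. They ran from -1.34 to -0.46, with a median of -0.86 beside -0.005 over all features. For Try4, Try5, Try10 and Gm5409 the fitted differences rest in part on background values (-1.30, -1.07, -0.83 and -0.86), for which the bounds above stand in. The bounds hold on this scale alone: that of Try4, at least 2.03-fold, was 1.48-fold with an offset of 50, 1.29-fold in the authors' normalised values and 1.21-fold without background correction.

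Within each group the members detected on all arrays kept an order of pools that the choice of genes did not use. This order was noticed after the values were seen and is given without a test. Of the 5 members detected on all arrays (Cela1, Cela2a, Cela3b, Ctrb1 and Ctrl), control pool 3 was the lowest control in 5 of 5 and control pool 1 the highest in 4 of 5, the exception being Ctrb1. The 4 trypsinogen probes, detected in all control pools, did not share it: control pool 3 was the lowest for Try4, control pool 1 for Try5 and control pool 2 for Try10 and Gm5409, so that over all 9 control pool 3 was the lowest in 6. Deletion pool 2 was the lowest deletion pool in 5 of 5 and deletion pool 3 the highest in 4 of 5, the exception being Cela1. Among the 12521 features detected on all arrays, control pool 3 was the lowest control in 31.6% and deletion pool 2 the lowest deletion pool in 32.5%. In the same features control pool 1 was the highest control in 35.5% and deletion pool 3 the highest deletion pool in 31.3%. These genes share arrays and pools, so they are not independent observations of that order. The size of the spread was unequal: around its group mean, deletion pool 2 stood at -0.40 for Cela2a, -0.42 for Cela1 and -0.43 for Ctrb1 but at -0.11 for Ctrl.

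**Figure D3:**
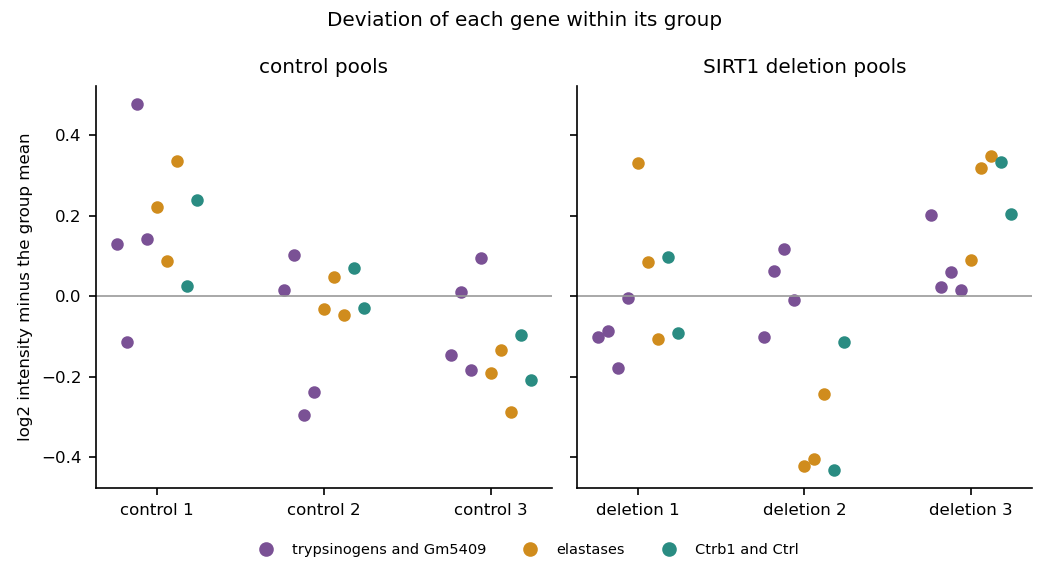
Log2 intensity minus the mean of the gene's own group (vertical axis) for the 9 genes that passed the filter, in each control pool (left) and SIRT1 deletion pool (right), coloured by enzyme class. Elastases, Ctrb1 and Ctrl lie below 0 in control pool 3 and in deletion pool 2, while the trypsinogens and Gm5409, which are at background in deletion pools, stay within 0.21 of 0 there.

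Other exocrine pancreas genes were listed as the wider pathway, most of them lipases, amylases, carboxypeptidases, granule and regenerating-gene proteins. The list also held Prss3, Ctrc, Spink1, Klk1, Dmbt1 and Tmprss15, and its gene Amy1 is on the salivary gland list too. Of 29 on the array 17 passed the filter, 3 of them (Zg16, Reg2 and Sycn) through the control pools alone, and 10 were detected on no array. Of the 17, 14 had a negative and 3 a positive log2 difference (range -1.69 to 0.31, median -0.50), where 51.5% of all features were negative. In 11 the deletion pools lay below all control pools, as they did in 7.21% of all features. Zg16, Reg2 and Sycn are among the 11 and, having passed through the control pools alone, had to differ. At a limma adjusted p under 0.05, 2 were called lower, against 0.0492% of all features. They are the granule protein gene Zg16 (at least 2.70-fold) and Reg1 (-1.05), which encodes a secreted lectin-like protein. Zg16 passed the filter through the control pools alone and so had to differ, which leaves its call no weight. The call of Reg1 was lost without any 1 control pool or without deletion pool 1 or 2 (limma adjusted p between 0.0659 and 0.201). The next were Cel, a lipase (-0.72, limma adjusted p = 0.0645), and Clps, the cofactor colipase (-1.11, limma adjusted p = 0.0915). Among the 7 of these genes detected on all arrays, control pool 1 was the highest control in 6 and control pool 2 the lowest in 6, and deletion pool 2 was the lowest deletion pool in 4. Over all features detected on all arrays these shares were 35.5%, 33.0% and 32.5%. The lowest control pool was thus not the one of the proteases detected on all arrays, control pool 3.

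By Pearson correlation over the 6 pools with the mean of the 9 proteases, the 5 most similar named genes were Reg1 (r = 0.998), Zg16 (0.993), Ddost (0.989), Aqr (0.985) and Rnf19a (0.984). With 6 points and a shared group difference, such values describe these arrays only. Reg1 read 6.37, 6.10 and 5.95 in control pools and 5.04, 4.95 and 5.28 in deletion pools, the same order of pools as Cela3b. Ddost, a subunit of the oligosaccharyltransferase complex, Aqr and Rnf19a had smaller log2 differences of -0.26, -0.23 and -0.18.

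Transcription factors of acinar cells gave overlapping groups or no signal. Of 7 on the array, Ptf1a, Bhlha15, Gata4 and Gata6 were detected on no array. Rbpjl, the acinar RBPJ protein, had signal above background in 2 control pools and 1 deletion pool and a log2 difference of -0.09, Nr5a2, a receptor related to SF1, had -0.009 and Xbp1, a factor of secretory cells that other cells also express, had 0.01. In all 3 the groups overlapped.

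Other proteases of the S1 family, listed as made outside the exocrine pancreas, gave the comparison within the family. Of 55 on the array 17 passed the filter, 10 lower and 7 higher, with a range from -0.21 to 0.31 and a median of -0.01. Of these, 0 were called in either direction by limma, against 0.105% of all features, a share at which 0 says little about 17 genes. In 2 the deletion pools lay below all control pools, as they did in 7.21% of all features. In 1 they lay above all control pools, for which no share over all features is given here. The lowest p were those of Acr, the sperm protease acrosin (0.27, limma adjusted p = 0.542), Htra1, a secreted protease (-0.21, adjusted p = 0.542), Mst1 (0.31, adjusted p = 0.608) and Plat, tissue plasminogen activator (-0.15, adjusted p = 0.621).

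Inhibitors and receptors of trypsin were also read. Of 11 on the array 9 passed, 6 lower and 3 higher with a median of -0.18, where 51.5% of all features were negative. Of the 9, 0 were called by limma, against 0.105% of all features, a share at which 0 says little about a list of this size. Spink1, the trypsin inhibitor that acinar cells secrete with the zymogens, had signal above background in 3 control pools and 1 deletion pool and read 5.11 and 4.83 on average, with overlapping groups (log2 difference -0.27, 95% interval -0.56 to 0.01). Serpina1a, an antitrypsin gene, was detected in control pools alone and was at least 1.03-fold lower. Having passed the filter through those pools alone, it had to differ. Spint1, a membrane inhibitor of S1 proteases, had 0.26 and Serpina3n, a secreted serpin, -0.18. The receptors F2r, F2rl2 and F2rl3, which proteases activate by cleavage, had differences of 0.09, 0.04 and -0.05, with overlapping groups.

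**Figure D4:**
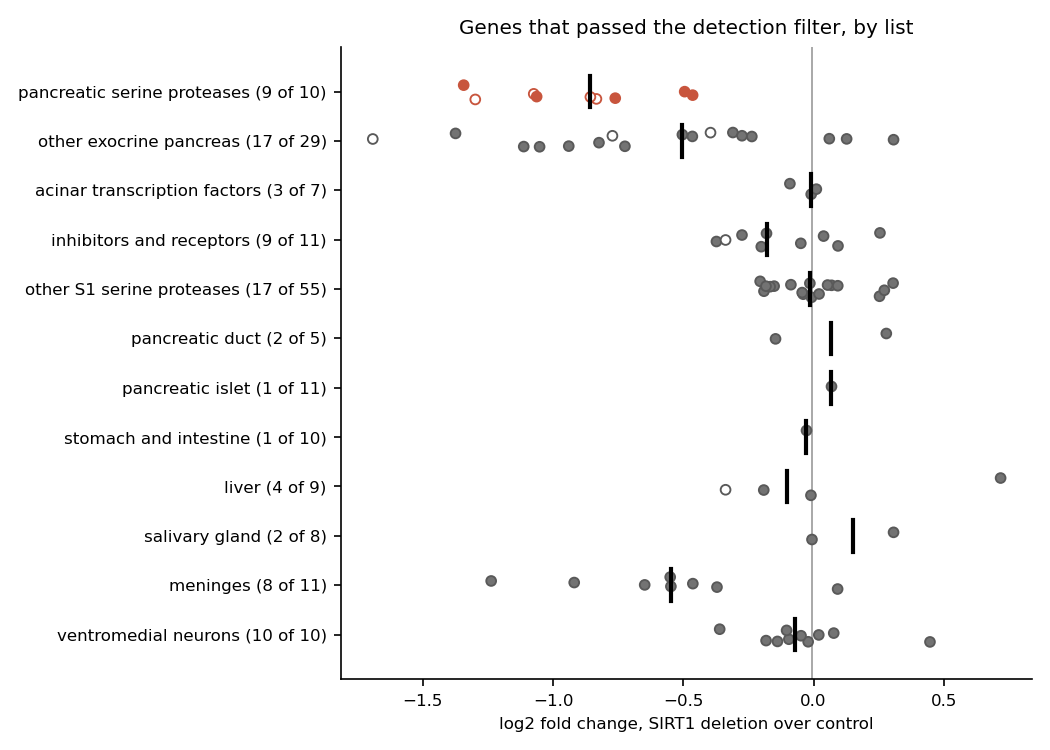
Log2 fold change of SIRT1 deletion over control (horizontal axis) for the genes that passed the detection filter in each list, with the number that passed of those on the array in brackets; black bars are list medians, open points were not detected in any deletion pool, and the grey line is the median of all features. The pancreatic serine proteases (median -0.86), other exocrine genes (median -0.50) and meningeal genes (median -0.55) lie left of the other S1 serine proteases (median -0.01).

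Markers of other cell types were read beside these values. For the exocrine list of 29 genes above, the summed linear intensity of the 17 that passed was between 4088 and 4833 in control and between 3091 and 3206 in deletion pools. The offset of 16 added to every probe remains in this and the later sums, and it weighs most where the genes are dim. Such sums are carried by the brightest probes: Amy2a5, a pancreatic amylase gene, made up 70.1% to 71.7% of the exocrine one. The other 16 genes summed to between 1193 and 1443 in control and between 905 and 921 in deletion pools. The Amy2a5 probe in the sum had a log2 difference of -0.47. A second Amy2a5 probe, detected on all arrays, had -0.05 with overlapping groups. Another amylase gene of the list, Amy1, had 0.31, also with overlapping groups. Of 11 pancreatic islet genes, 9 were detected on no array, Ins2, Gcg, Ppy and Iapp among them, and the 1 that passed, Slc30a8, had a log2 difference of 0.07. Of 5 pancreatic duct genes, Krt19 and Cftr were detected on no array, and Krt7 (-0.15) and Sox9 (0.28), which astrocytes also express, passed with overlapping groups. Of 10 stomach and intestine genes 6, of 9 liver genes 3 (Alb, Fgb and Tat) and of 8 salivary gland genes 5 were detected on no array. A probe without detected signal does not show an absent transcript: those of Snap25 and Nefl, which neurons express strongly, were detected on no array.

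The summed intensity of the single stomach and intestine gene that passed ranged from 38.7 to 55.8 in control and from 41.8 to 52.8 in deletion pools. For the 4 liver genes that passed it ranged from 686 to 1016 and from 623 to 919, and for the 2 salivary gland genes from 284 to 347 and from 297 to 492. For the 2 duct genes it ranged from 1743 to 2062 and from 1856 to 2632, and for the 1 islet gene from 27.6 to 34.8 and from 31.7 to 33.6. Each of these sums overlapped between the groups. Single genes carried most of them: Ttr made up 65.6% to 81.2% of the liver sum and Sox9 98.1% to 99.0% of the duct sum. Amy1, which is also on the exocrine list, made up 57.8% to 79.1% of the salivary gland sum. The groups did not overlap for 1 of the 4 liver genes, Serpina1a, which passed the filter through the control pools alone.

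Meningeal genes also read lower on average (7 of 8 that passed, median -0.55), with sums from 815 to 2028 in control and from 658 to 1364 in deletion pools, so that the groups overlapped. Spleen and lymph node genes were detected on no array in 5 of 6 cases, and the 1 that passed, Cd3e, had -0.27 and summed intensities from 31.9 to 44.7 in control and from 27.1 to 32.9 in deletion pools. The 3 red blood cell genes that passed had differences from -0.29 to 0.11, with sums from 6482 to 8616 and from 6809 to 9023. The part of any of these cells in the protease values was not tested.

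The size of the differences depended on the treatment of the background. With an offset of 50 the difference of Try4 was -0.69 in place of -1.30, in the authors' normalised values -0.47 and without background correction -0.36. For Cela2a the same settings gave -1.20, -1.08 and -0.96 in place of -1.34. Leaving out 1 pool at a time moved Try4 between -1.40 and -1.23 and Cela2a between -1.50 and -1.14. All 9 genes kept a negative difference under every setting that kept their probe. They were picked for low readings in deletion pools and every setting reuses these arrays, so the shared sign is no further evidence of direction.

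**Figure D5:**
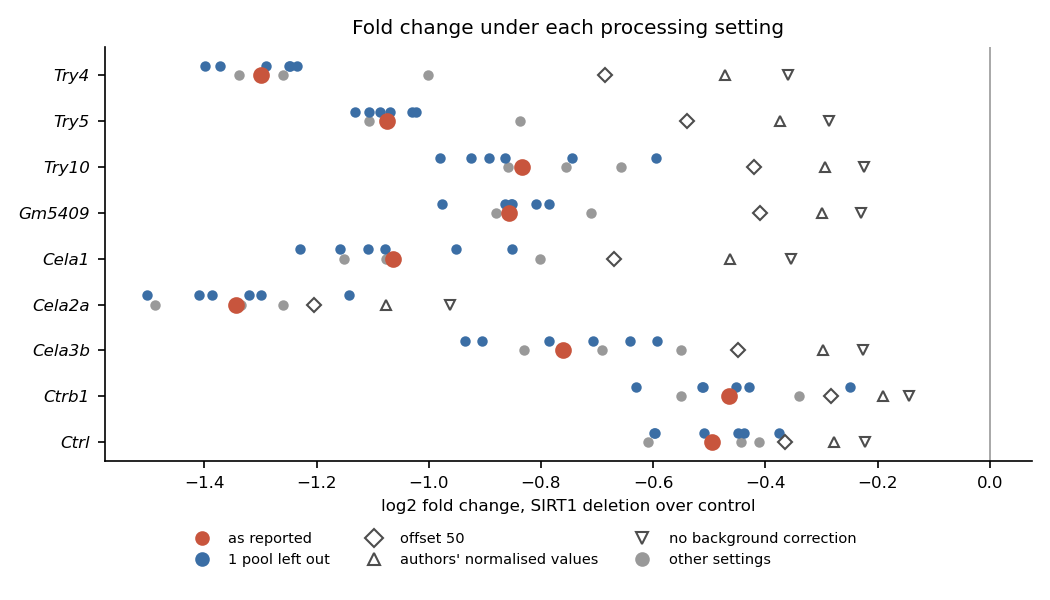
Log2 fold change of SIRT1 deletion over control (horizontal axis) for the 9 genes as reported (red), with 1 pool left out (blue) and under the other processing settings (grey and open symbols). Values without background correction lie nearest to 0, from -0.96 for Cela2a to -0.14 for Ctrb1, and no value is above 0.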

How the data were processed

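Per the labels' protocols, Trizol-extracted, DNase-treated RNA was made into biotinylated cRNA for Illumina arrays. In the main table the authors deposited an averaged bead intensity and a detection p-value, per the file headers, at 45281 probes; these intensities were neither background-subtracted nor scaled. A second deposited table holds intensities quantile normalised by the authors and served as an alternative. The labels name no software. The platform annotation gave 1 gene symbol to 34885 probes, several to 18 and none to 10378.

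In R 4.3.3 with limma 3.58.1, background was removed by normexp, with negative-control moments inferred from detection p-values and an offset of 16 (the neqc steps), and values were quantile normalised and log2 transformed. Probes detected (p under 0.05) on at least 3 of 6 arrays were kept (20402), the brightest per gene represented it, and lmFit and eBayes compared 3 control with 3 SIRT1 deletion pools over 14221 features, 11049 of them named genes, with Benjamini-Hochberg adjustment. The procedure was tested on simulated data. Nothing in the labels says the pools are of separate animals, so p-values and intervals measure the spread between these pools, and the number of arrays limits the precision.

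The members and lists were chosen with earlier results of these data known. Named are all members, the 4 genes of lowest p of the exocrine, acinar factor, protease and inhibitor lists, the 3 protease-activated receptors that passed, Sirt1 and the 5 genes most alike in pattern; of the marker lists, undetected defining markers and genes that passed; and cluster neighbours by their place in the annotation. Reg2, Sycn, Amy2a5 and Amy1 were named after their values were seen. Nr5a1 was named as the gene of SF1, and Ctrc, Klk1, Dmbt1 and Tmprss15 to describe the exocrine list. Same-numbered pools of the 2 groups did not deviate together (correlations from -0.0515 to -0.023 across features). These values show no pairing by number, but with 3 pools a group they cannot exclude one. Promoters and gene order came from RefSeq (GRCm38.p6), matched by symbol. The alternatives covered background, offset, normalisation, filter, probe rule, prior, weights, the replicate number as a block and each pool left out. Columns show no chip, so no chip was tested as a batch. Python 3.11.15 drew the figures.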

Additional observations from a re-analysis of the deposited data

How the results depend on the processing

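Over all features 15 were called (8 higher, 7 lower); the split was 7 higher and 14 lower with median scaling and 8 higher and 11 lower with an offset of 50. The number was 9 without a filter, 4 with detection at p under 0.01 on all 6 arrays and 29 with an intensity trend and robust prior, and 10 to 14 with 1 pool left out. Of the proteases, 4 were called in the main setting. The number was 2 without background correction, 2 without a filter, 1 under the stricter detection filter, 2 with every probe a feature and 2 to 3 with 1 pool left out. With the replicate number as a block it was 2. It was 5 with the trend and robust prior (Cela1 added), 3 in the authors' normalised values and 4 with an offset of 50, with Cela1 in place of Gm5409. Of the other exocrine genes 2 were called, against 4 with normexp without detection p-values, 4 with an offset of 50, 6 with median scaling, 1 without a filter, 0 under the stricter detection filter (which left few dim genes), 1 with every probe a feature, 7 with the trend and robust prior, 1 with the replicate block and 1 to 4 with 1 pool left out. The median difference of the proteases, -0.86, was -0.45 with an offset of 50, -0.30 in the authors' normalised values, -0.23 without background correction and between -0.98 and -0.79 with 1 pool left out. The stricter filter kept 2 proteases, Cela2a and Ctrl. Of the other S1 proteases, 0 were called in any of the 17 alternatives. The signals of Try4, Try5, Try10 and Gm5409 in deletion pools were not above background, which limits them to bounds. These ran from 1.40 to 2.03-fold in the main setting and, on other scales, an alternative chosen after seeing the data, 1.19 to 1.48-fold with an offset of 50, 1.12 to 1.29-fold in the authors' values and 1.09 to 1.21-fold without background correction; that of Zg16 was 2.70, 1.79, 1.48 and 1.35-fold.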
